A study of Homo sapiens with 4 samples.

Results

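The 10 genes described here were WT1, a transcription factor, with 5 genes used as markers of the epicardium and of mesothelium (TCF21, BNC1, UPK3B, LRRN4, MSLN) and 4 genes of retinoic acid synthesis and sensing (ALDH1A1, ALDH1A2, ALDH1A3, RARB). They were taken by gene symbol, each had 1 row in the table, and they are 10 of the 58229 genes kept. The genes were chosen by their HAND1 overexpression against Control values in these same 4 libraries, so those values are given below as a description. Where 1 of the 10 is said to be called, this places it in the fit of all genes and is no independent test of it.

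The libraries were bulk RNA-seq of CD31+ cells, collected at day 8 of hematopoietic differentiation from H1, an established line of human embryonic stem cells. Both groups received activin A with BMP4 and afterwards VEGF with bFGF. The Control group and the HAND1 overexpression group (HAND1_OE in the labels) had 2 libraries each, and the comparison bears on what added HAND1 does to mesenchymal genes and to blood formation from hemogenic endothelial progenitors. The labels say neither how HAND1 was delivered nor whether the libraries of a group came from separate cultures, so the p-values below measure only the spread between these libraries. Levels are FPKM, fragment counts scaled by transcript length and by the size of the library, and can be compared between genes.

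WT1 is a zinc-finger transcription factor of the developing kidney, gonad and mesothelium, and in the heart it marks the epicardium, the mesothelial sheet over the muscle whose cells can turn mesenchymal and enter the wall. Retinoic acid is made from vitamin A: retinol is oxidized to retinaldehyde, the ALDH1A enzymes oxidize retinaldehyde to retinoic acid, CRABP proteins carry it, RAR and RXR receptors bind it and act on DNA, and CYP26 enzymes break it down. The epicardium is a known source of retinoic acid in the embryonic heart, where ALDH1A2 is its usual enzyme. HAND1 is a basic helix-loop-helix factor of heart, extraembryonic and lateral mesoderm.

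HAND1 itself (chr5:154474972-154478264, GRCh38) measured 12.1 and 14.3 FPKM without and 520.5 and 517 FPKM with overexpression, 39.3-fold higher in the mean (log2 fold change 5.20, SE 0.15, limma adjusted p 0.00145). The sorted antigen, PECAM1 (CD31), was present in all 4 libraries at 95.5 and 141 FPKM in Control against 92.0 and 160.2 FPKM with HAND1. The step that 1 fragment makes in FPKM put the depth at 21500000 to 26100000 fragments a library. Of the 14622 genes at 1 FPKM or more in at least 2 libraries, limma called 608 at an adjusted p under 0.05, which is 4.16%. These were 299 higher with HAND1 (2.04%) and 309 lower (2.11%). At an unadjusted p under 0.05 limma gave 997 of the 14622 genes higher and 1554 lower, the background for the unadjusted counts below. The libraries of the groups did not overlap for 46.3% of the genes tested.

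Against that background, 6 of the 10 genes passed the expression filter, and the fit called WT1, ALDH1A3 and LRRN4 higher, ALDH1A1 lower, and neither BNC1 nor ALDH1A2. TCF21, RARB, UPK3B and MSLN stayed under the filter in these cells. Nothing is read from these counts, since the same contrast chose the genes. Of the called genes, WT1 and ALDH1A3 reached 1 FPKM in 2 libraries only with the HAND1 libraries counted. The epicardial and mesothelial name of the set is not borne out by all of its markers, since TCF21 and the mesothelial surface genes UPK3B and MSLN were below 0.5 FPKM in every library.

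**Figure D1:**
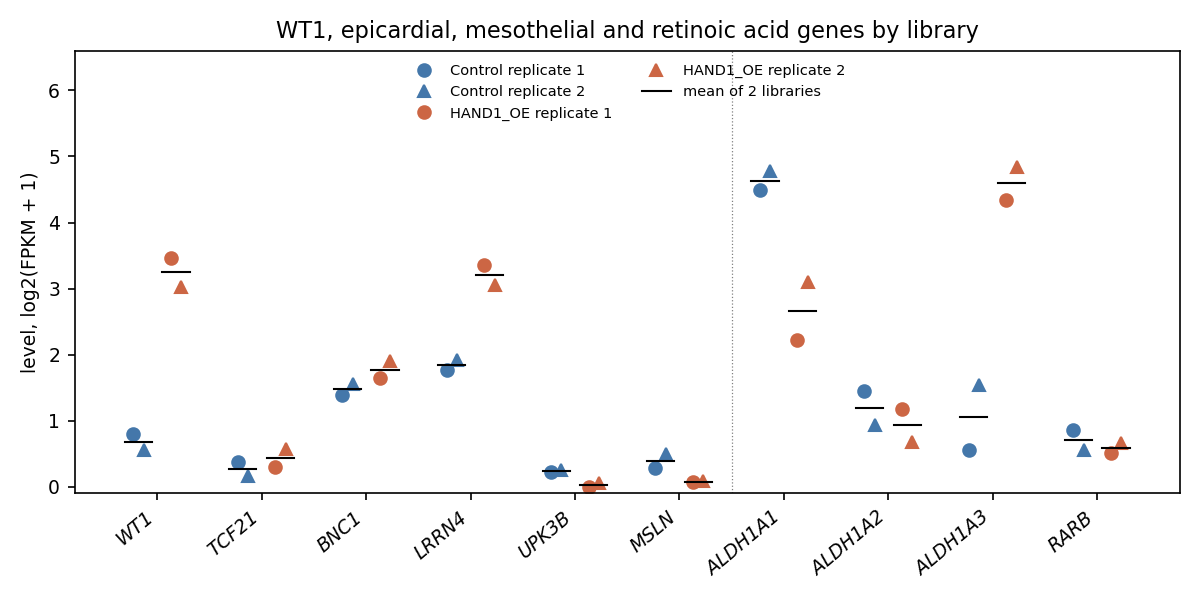
Level of the 10 genes as log2(FPKM + 1) in each of the 4 libraries (circles replicate 1, triangles replicate 2; blue Control, orange HAND1), with a line at the mean of each group. WT1, ALDH1A3 and LRRN4 lie higher in both HAND1 libraries, ALDH1A1 lies lower in both, and the points of TCF21, ALDH1A2 and RARB mix.

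WT1 (ENSG00000184937.13, minus strand, chr11:32387775-32435630) was measured at 0.746 and 0.472 FPKM in Control against 10.05 and 7.14 FPKM with HAND1. Both HAND1 libraries lay above both Control libraries, with 0.609 ± 0.193 FPKM in Control and 8.60 ± 2.06 FPKM with HAND1 (SD, n = 2 each), 14.1-fold higher in the mean. On the log2(FPKM + 1) scale, used for every log2 fold change here, the difference was 2.57 (SE 0.23), a scale that understates the change of genes at low level. Were all of the gene's fragments from its longest coding transcript, these levels would correspond to about 46.9 and 28.9 fragments in Control against 746 and 464 with HAND1. As the libraries are bulk, more WT1 RNA per cell and more cells with WT1 cannot be told apart, and the same holds for every gene below.

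The antisense gene WT1-AS (chr11:32435518-32458769) begins head to head with WT1 and shares 113 exonic bases with it. Its level was 0.886 and 0.162 FPKM in Control and 3.16 and 1.31 FPKM with HAND1. The HAND1 libraries were both higher, but the difference did not pass the test (log2 fold change 1.07, SE 0.39, limma adjusted p 0.240). WT1-AS passed the filter only through the HAND1 libraries. The library kit did not mark strand, so reads from the shared bases belong to either gene, though only 2.08% of the 50-base words of WT1 transcripts occur in WT1-AS.

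The sequence upstream of WT1 is shown because it holds E-boxes, the letters CANNTG that basic helix-loop-helix factors such as HAND1 bind. The stretch runs 5′ to 3′ on the minus strand at chr11:32435631-32435789 (GRCh38.p14, RefSeq) up to the first WT1 exon, and it lies within WT1-AS exons. Capitals mark the E-boxes.
WT1: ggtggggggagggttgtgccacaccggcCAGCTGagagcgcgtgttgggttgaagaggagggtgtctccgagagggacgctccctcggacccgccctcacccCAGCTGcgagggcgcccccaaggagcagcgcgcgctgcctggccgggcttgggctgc
RefSeq windows of the 250 bases before the start, own exons included, matched 8 of the 10 genes (all but LRRN4 and MSLN). An E-box on either strand was found in 7 of these 8, beside 61.8% of all such windows. The form CATCTG, itself a CANNTG that HAND1 binds with E proteins, was in the windows of TCF21, ALDH1A1 and UPK3B, beside 12.2% of all windows.

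The 5 genes nearest to WT1 in their 4 log2(FPKM + 1) values, by Euclidean distance over these 4 libraries and all genes tested, were LGI2 (distance 0.456), PLXDC1 (0.652), SYN2 (0.680), POSTN (0.686) and ADAMTS2 (0.725). LGI2 stood at 1.03 and 0.655 FPKM in Control against 7.58 and 7.20 FPKM with HAND1. POSTN, the matrix protein periostin, stood at 0.825 and 0.922 FPKM in Control against 6.70 and 6.01 FPKM with HAND1. With 2 libraries a group, such likeness describes the 2 levels and little else.

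Of the surface and nuclear markers of mesothelium, LRRN4 moved with WT1. LRRN4 (ENSG00000125872.7, minus strand, chr20:6040778-6054049), a leucine-rich repeat membrane protein, was at 2.40 and 2.76 FPKM in Control against 9.28 and 7.29 FPKM with HAND1. Both HAND1 libraries were higher, and the means were 2.58 ± 0.258 and 8.28 ± 1.40 FPKM (SD, n = 2 each), 3.21-fold apart, with a log2 fold change of 1.37 (SE 0.19). Its 1 annotated transcript gives about 128 and 144 fragments in Control and 584 and 402 with HAND1. Without Control 1, Control 2 or HAND1_OE 1 the log2 fold change was 1.29, 1.44 and 1.21, and LRRN4 was then not among the genes called.

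BNC1 (ENSG00000169594.13, minus strand, chr15:83255903-83284714), the zinc-finger protein basonuclin 1, was at 1.62 and 1.95 FPKM in Control against 2.12 and 2.74 FPKM with HAND1. The HAND1 libraries lay just above Control, with means of 1.78 ± 0.238 and 2.43 ± 0.440 FPKM (SD, n = 2 each) and a log2 fold change of 0.30 (SE 0.21).

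The other 3 markers were at low level, below 0.5 FPKM in every library. TCF21 (ENSG00000118526.6, plus strand, chr6:133889138-133895553), a helix-loop-helix factor of epicardial cells that become fibroblasts, was at 0.296 and 0.120 FPKM in Control against 0.231 and 0.480 FPKM with HAND1, and the groups overlapped. These levels amount to at most 28.0 and 11.1 fragments in Control and 25.7 and 46.9 with HAND1. TCF21 shares 1383 exonic bases with its antisense gene TARID, so even these fragments may belong to either. MSLN (ENSG00000102854.15, plus strand, chr16:760762-768865), the mesothelial surface protein mesothelin, was at 0.223 and 0.404 FPKM in Control against 0.0484 and 0.0577 FPKM with HAND1. Both HAND1 libraries were lower, yet the levels amount to at most 10.5 and 18.6 fragments in Control and 2.71 and 2.81 with HAND1. UPK3B (ENSG00000243566.6, plus strand, chr7:76510428-76516521), a uroplakin that marks mesothelium, was at 0.170 and 0.186 FPKM in Control, listed at 0 in HAND1_OE 1 and at 0.0434 FPKM in HAND1_OE 2. This is at most 7.87 and 8.42 fragments in Control and 2.08 in HAND1_OE 2, and 9.04% of the words of UPK3B transcripts occur in other genes, among them UPK3BP1.

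Among the other epicardial and mesothelial genes, 16 of 27 were tested, with 0 called higher by limma, 2 called lower and a median log2 fold change of -0.03, beside -0.08 over all genes tested. At an unadjusted p under 0.05 limma gave 3 genes that were higher and 4 that were lower, beside 997 and 1554 of all 14622 genes tested. HAND2, the relative of HAND1 expressed in heart and lateral mesoderm, fell from 35.4 and 36.8 FPKM to 7.24 and 9.09 FPKM (log2 fold change -2.02, limma adjusted p 0.00730). CAV1, the caveolar coat protein, fell from 3.98 and 5.15 FPKM to 0.952 and 1.30 FPKM (log2 fold change -1.38, adjusted p 0.0326), a call lost without Control 1, Control 2 or HAND1_OE 1 (adjusted p 0.0618, 0.120 and 0.0620). Both libraries of HAND1 were below both of Control for these genes.

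TBX18, an epicardial T-box factor, was at 0.363 and 0.439 FPKM in Control against 1.61 and 2.50 FPKM with HAND1. It passed the filter only through the HAND1 libraries and missed the threshold (log2 fold change 1.11, limma adjusted p 0.0745). TBX18 was among the 3 genes of this list that were higher by the unadjusted p, beside 4 that were lower. The most abundant genes of the list were the simple epithelial keratins KRT8 and KRT18. KRT8 was at 102 and 96.0 FPKM in Control and 113 and 130.3 FPKM with HAND1, and KRT18 at 88.6 and 76.3 FPKM against 105 and 97.8 FPKM, neither called.

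Of the ALDH1A enzymes, ALDH1A1 was high in Control and ALDH1A3 was high with HAND1. ALDH1A1 (ENSG00000165092.12, minus strand, chr9:72900662-73080442), the retinaldehyde dehydrogenase also used to mark stem and progenitor cells, was at 21.5 and 26.3 FPKM in Control against 3.66 and 7.58 FPKM with HAND1. Both HAND1 libraries were lower, with means of 23.9 ± 3.42 and 5.62 ± 2.77 FPKM (SD, n = 2 each), 4.26-fold apart, and a log2 fold change of -1.97 (SE 0.31). No 50-base word of ALDH1A1 transcripts occurred in another gene. Without Control 1 or Control 2 the log2 fold change was -2.11 and -1.83, and ALDH1A1 was then not among the genes called.

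ALDH1A3 (ENSG00000184254.16, plus strand, chr15:100877714-100916626), the enzyme of the developing eye and nasal region, was at 0.469 and 1.92 FPKM in Control against 19.2 and 27.8 FPKM with HAND1. Both HAND1 libraries were far above either Control library, with means of 1.20 ± 1.03 and 23.5 ± 6.09 FPKM (SD, n = 2 each), 19.6-fold apart, and a log2 fold change of 3.54 (SE 0.37). The Control libraries differed from each other by more, in proportion, than the HAND1 libraries did. An antisense gene, AC015712.2, shares 1585 exonic bases with it, and 36.5% of the words of ALDH1A3 transcripts occur in that gene or in AC015712.5. AC015712.2 was listed at 0.103 and 0.0291 FPKM in Control against 1.49 and 1.71 FPKM with HAND1, below ALDH1A3 in every library. The kit did not mark strand, and how reads of the shared bases divide between these genes was not tested.

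ALDH1A2 (ENSG00000128918.14, minus strand, chr15:57953424-58497866), the main embryonic enzyme, was at 1.74 and 0.908 FPKM in Control against 1.27 and 0.598 FPKM with HAND1. The groups overlapped, at 1.32 ± 0.587 and 0.934 ± 0.476 FPKM (SD, n = 2 each), with a log2 fold change of -0.26 (SE 0.30). The genes that share exonic bases with it, AC025431.1 and AQP9, were listed at 0 in all 4 libraries.

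Summed over the 3 enzymes, the level was 23.7 and 29.2 FPKM in Control and 24.1 and 36.0 FPKM with HAND1, so the groups overlapped in the total. Within that total, ALDH1A1 made up 90.7% and 90.3% in Control and 15.2% and 21.1% with HAND1. ALDH1A3 made up 1.98% and 6.59% in Control and 79.5% and 77.3% with HAND1. ALDH1A2 held 1.66% to 7.33% of the total over the 4 libraries. These are shares of RNA per length, and enzyme protein, enzyme activity and retinoic acid were not measured.

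**Figure D2:**
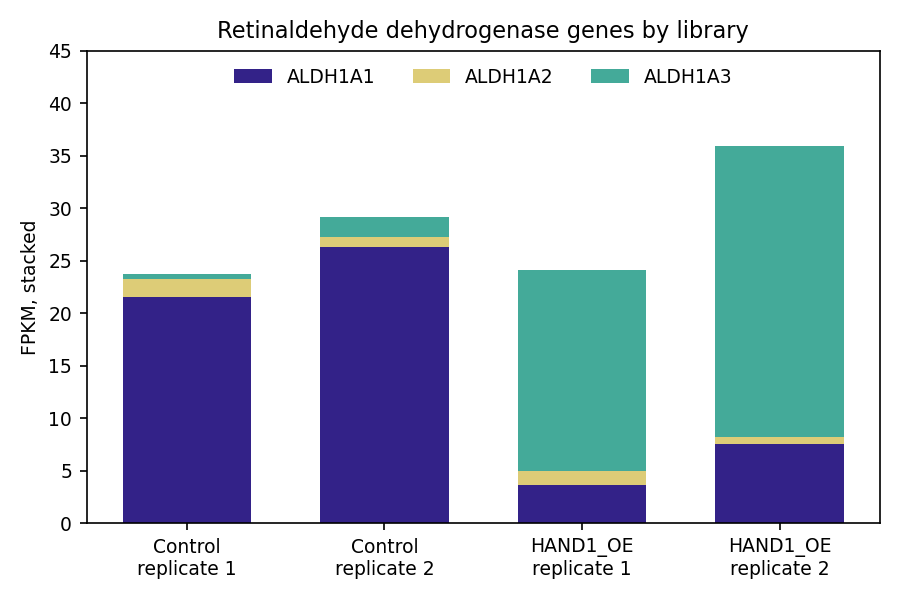
ALDH1A1, ALDH1A2 and ALDH1A3 stacked as FPKM in each library. The height of the stack overlaps between the groups, from 23.7 to 36.0 FPKM, while the largest share passes from ALDH1A1 in Control to ALDH1A3 with HAND1.

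The sequence before the RefSeq start of ALDH1A1, on the minus strand at chr9:72953057-72953303 (GRCh38.p14), is shown as the example among the called genes that holds the CATCTG form. This stretch lies inside the annotated span of the gene given above, downstream of its outermost start. Capitals mark its E-boxes, of which the first is CATCTG.
ALDH1A1: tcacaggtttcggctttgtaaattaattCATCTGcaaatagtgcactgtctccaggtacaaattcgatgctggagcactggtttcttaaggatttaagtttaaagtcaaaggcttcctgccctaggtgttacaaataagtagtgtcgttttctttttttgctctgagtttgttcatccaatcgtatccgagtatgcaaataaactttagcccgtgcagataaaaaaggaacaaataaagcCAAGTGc
The matching window of ALDH1A3 held no E-box, but all 250 of its bases lie within annotated exons of ALDH1A3 itself. These matches describe the letters in the windows, and these libraries do not measure binding of HAND1 to them. For other genes, FN1, FOXD1 and GATA4, the paper reports that HAND1 bound directly at the promoters.

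RARB (ENSG00000077092.18, plus strand, chr3:25174332-25597932) encodes a retinoic acid receptor and is itself a textbook target of retinoic acid through a repeated element in its promoter. It was at 0.812 and 0.472 FPKM in Control against 0.431 and 0.587 FPKM with HAND1. The groups overlapped, at 0.642 ± 0.240 and 0.509 ± 0.110 FPKM (SD, n = 2 each). RARB shares 28 exonic bases with TOP2B, which stood at 29.6 to 41.7 FPKM. A RefSeq promoter window of RARB (chr3:25428013-25428262, plus strand, GRCh38.p14) is shown because it carries the repeat that the receptors read. It is the first listed of 4 RefSeq entries and lies inside the annotated span of the gene. The repeat is GGTTCA and AGTTCA with CCGAA between them. Capitals mark the pattern searched, GTTCA repeated at a spacing of 6 bases, which leaves out the first G.
RARB: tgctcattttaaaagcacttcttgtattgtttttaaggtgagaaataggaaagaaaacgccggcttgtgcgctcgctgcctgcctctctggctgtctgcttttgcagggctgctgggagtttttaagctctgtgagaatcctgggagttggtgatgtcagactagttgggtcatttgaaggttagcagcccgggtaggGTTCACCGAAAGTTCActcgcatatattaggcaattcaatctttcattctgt
The pattern in capitals, searched on both strands, begins 52 bases before the start and was found in 17 of the 35116 windows of all genes (0.0484%). The receptor motif AGGTCA, in exactly these letters, was in 0 of the 8 matched windows and in 12.1% of all windows. The 6-base units of the RARB repeat differ from it in their letters.

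In levels per length, the order in Control began with ALDH1A1 and then LRRN4. BNC1, ALDH1A2, ALDH1A3, RARB and WT1 followed, each overlapping its neighbour, and MSLN, TCF21 and UPK3B came last, below WT1 and again overlapping. With HAND1, ALDH1A3 led, followed by WT1, LRRN4 and ALDH1A1, whose neighbours overlapped, and then by BNC1, ALDH1A2 and RARB, which did not overlap in that order. TCF21 overlapped RARB, and MSLN and UPK3B were last.

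**Figure D3:**
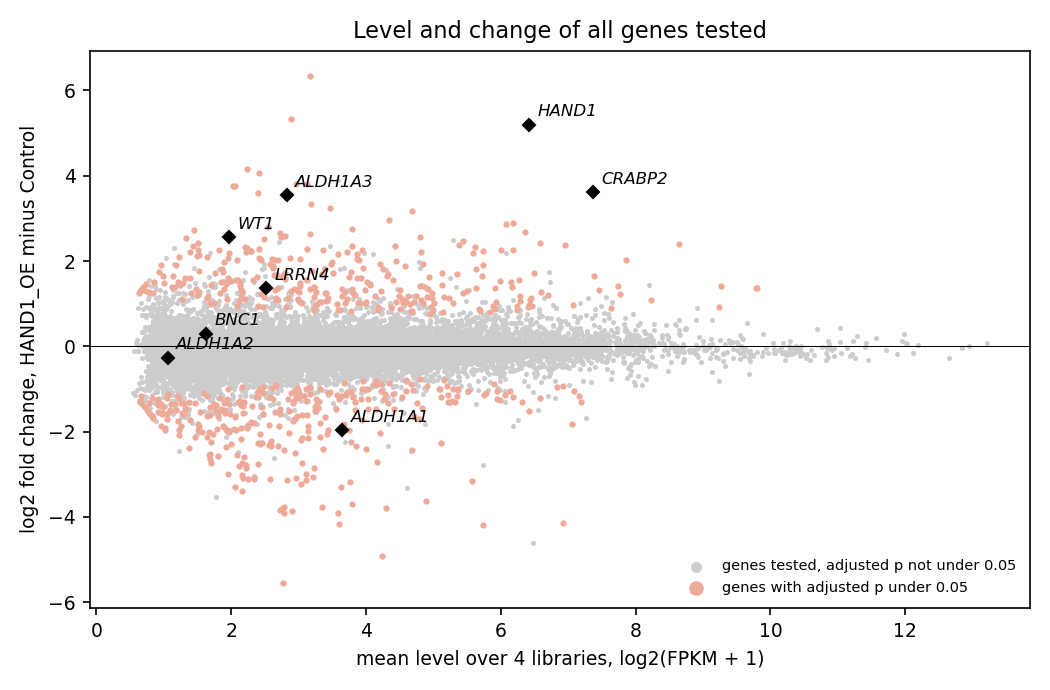
Log2 fold change (HAND1 minus Control, log2(FPKM + 1)) against mean level over the 4 libraries for all 14622 genes tested, with called genes in red and the tested genes of the set, HAND1 and CRABP2 named. WT1, ALDH1A3 and LRRN4 lie above most genes of their level, ALDH1A1 lies below them, and BNC1 and ALDH1A2 lie among them.

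Of the remaining retinoic acid genes, the carrier CRABP2 was the 1 that limma called. In the list of binding proteins and receptors 13 of 15 were tested, with a median log2 fold change of -0.09. CRABP2 was called higher and 0 were called lower (1 and 1 by the unadjusted p). CRABP2, which hands retinoic acid to the nuclear receptors, rose from 59.3 and 35.4 FPKM to 768 and 431 FPKM (12.7-fold, log2 fold change 3.62, SE 0.36, limma adjusted p 0.0100). Each HAND1 library exceeded both Control libraries, and the call remained when any 1 library was left out. FABP5, the other carrier, was at 52.2 and 39.4 FPKM in Control and 83.8 and 47.6 FPKM with HAND1 (adjusted p 0.520).

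The receptor relatives of RARB gave no call. RARA was at 21.6 and 20.7 FPKM in Control against 15.1 and 15.2 FPKM with HAND1 (log2 fold change -0.46, adjusted p 0.182). RARG was at 9.82 and 11.1 FPKM against 12.5 and 12.6 FPKM (log2 fold change 0.25, adjusted p 0.509). Hence RARB was the receptor of lowest level among the RAR genes in every library.

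Upstream of the ALDH1A enzymes, in retinoid uptake and retinol oxidation, 14 of 26 genes were tested and 0 were called by limma (median log2 fold change -0.07), while 0 were higher and 1 was lower by the unadjusted p under 0.05. TTR, the plasma carrier of retinol-binding protein, was at 48.4 and 84.9 FPKM in Control against 46.0 and 189 FPKM with HAND1, a spread set by HAND1_OE 2 (adjusted p 0.770). ADH5 was at 45.3 to 52.7 FPKM in all 4 libraries. Downstream, none of the 3 CYP26 enzymes passed the filter, with CYP26A1 at 0.576 and 0.762 FPKM in Control against 0.199 and 0.567 FPKM with HAND1, and CYP26B1 at 0.0754 to 0.665 FPKM.

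In the list of genes known to respond to retinoic acid, 13 of 22 were tested, with a median log2 fold change of -0.25. CRABP2 was again the 1 called higher and 0 were called lower (2 and 3 by the unadjusted p). TGM2, the transglutaminase induced by retinoic acid in many cells, was at 85.5 and 76.6 FPKM in Control against 127 and 129 FPKM with HAND1, without passing the threshold (log2 fold change 0.65, adjusted p 0.0790). CYP26A1, another of these genes, stayed under the filter, as given above.

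For WT1 itself, known target genes and partners were counted. Of 25 target genes 16 were tested, with NES called higher and SPRY1 called lower (5 and 4 by the unadjusted p). The shares called over all genes tested were 2.04% higher and 2.11% lower. The median log2 fold change of the list was 0.37, beside -0.08 over all genes tested. NES, the intermediate filament nestin, rose from 21.7 and 23.8 FPKM to 57.1 and 47.8 FPKM (log2 fold change 1.16, adjusted p 0.0248). The NES call was lost without Control 1, Control 2 or HAND1_OE 1 (adjusted p 0.0966, 0.0770 and 0.0512). SPRY1, an inhibitor of receptor tyrosine kinase signaling, fell from 44.9 and 76.3 FPKM to 8.44 and 12.0 FPKM (log2 fold change -2.42, adjusted p 0.0179). Thus the 2 called targets moved in opposite directions.

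IGF2, the most abundant of the target genes, was at 210.3 and 150.5 FPKM in Control against 611 and 386 FPKM with HAND1, and missed the threshold (log2 fold change 1.44, adjusted p 0.0588). CDKN1A was at 101 and 126 FPKM against 136 and 172 FPKM (adjusted p 0.346). Of 8 partner genes 7 were tested, with 0 called higher and CITED2 called lower (0 and 3 by the unadjusted p). CITED2, a transcriptional coactivator that works with WT1 in adrenal and gonad development, fell from 92.5 and 126 FPKM to 46.7 and 47.0 FPKM (log2 fold change -1.19, adjusted p 0.0347). That call was lost without Control 2, where the log2 fold change was -0.97 and the adjusted p 0.114, and without HAND1_OE 1 (0.0584) or HAND1_OE 2 (0.0522), and after quantile normalization (0.0507). U2AF2, a splicing factor, was at 134 and 132 FPKM against 105 and 98.1 FPKM and was not called (adjusted p 0.243).

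WT1 is also a gene of the intermediate mesoderm and kidney, where 10 of 24 listed genes were tested, with a median log2 fold change of -0.14. FOXD1 was called higher and 0 were called lower (3 and 2 by the unadjusted p). FOXD1, a forkhead factor of renal stroma, rose from 2.81 and 2.42 FPKM to 46.4 and 23.5 FPKM (log2 fold change 3.24, adjusted p 0.0104). Both HAND1 libraries exceeded Control, and the call remained with any 1 library left out. PODXL, a sialomucin of podocytes and endothelium, was at 22.1 and 59.2 FPKM in Control against 37.3 and 74.6 FPKM with HAND1 (adjusted p 0.709), and FOXC1 was at 35.6 and 29.6 FPKM against 43.0 and 43.9 FPKM (adjusted p 0.262). The metanephric gene HOXD11 was listed at 0 in all 4 libraries.

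**Figure D4:**
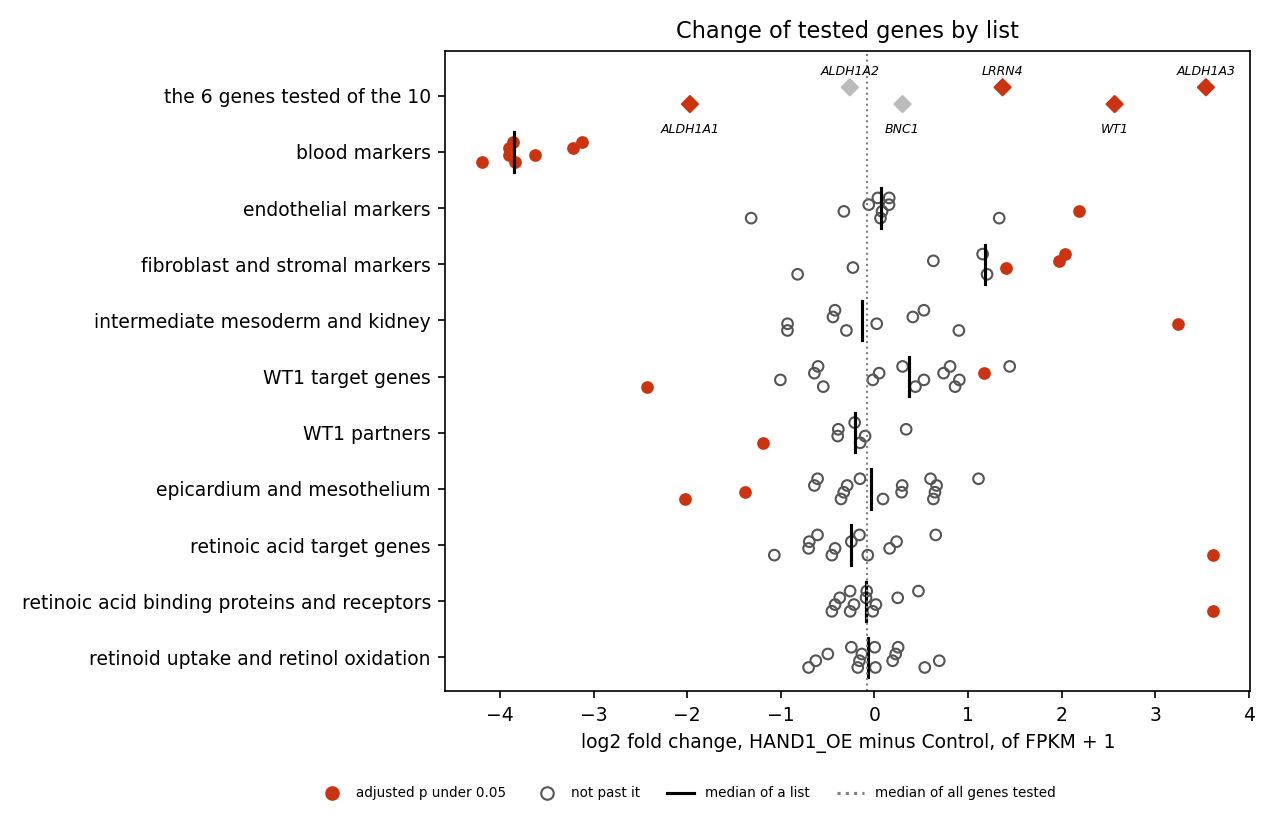
Log2 fold changes (HAND1 minus Control, log2(FPKM + 1)) of the tested genes of 10 lists and of 6 of the 10 genes described, with called genes filled in red, a black line at each list's median and a dotted line at the median of all genes tested. The blood markers lie far below 0, at a median of -3.85, while the retinoic acid, epicardial and kidney lists centre between -0.25 and -0.03.

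Marker genes of other cell types were read from the same contrast, and most of their calls fell in the blood and stromal lists. The 10 endothelial markers summed to 1429 and 1265 FPKM in Control and to 1372 and 1505 FPKM with HAND1, which overlapped. All 10 were tested, with VWF called higher and 0 called lower (2 and 1 by the unadjusted p). KDR was at 251 to 272 FPKM and TIE1 at 219 to 311 FPKM over the 4 libraries, and VWF rose from 31.3 and 14.6 FPKM to 107 and 95.4 FPKM (log2 fold change 2.18, adjusted p 0.0338).

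Blood markers were lower with HAND1, with 8 of 8 tested genes called lower and a median log2 fold change of -3.85. Their sum was 402 and 618 FPKM in Control and 31.4 and 22.9 FPKM with HAND1. HBE1, an embryonic globin, fell from 175 and 295 FPKM to 11.8 and 11.1 FPKM (log2 fold change -4.19, adjusted p 0.00607). GATA1, the erythroid and megakaryocyte factor, fell from 25.6 and 29.6 FPKM to 1.51 and 0.543 FPKM (log2 fold change -3.86, adjusted p 0.00700). HBZ and ITGA2B were called lower as well (log2 fold change -3.90 and -3.62), while PTPRC and MPO were at or near 0 in all 4 libraries. The part of this shift in the lower level of ALDH1A1 was not tested.

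Fibroblast and stromal markers summed to 809 and 732 FPKM in Control and to 1114 and 1129 FPKM with HAND1. Of these 10 genes 8 were tested, with 3 called higher and 0 called lower (6 and 1 by the unadjusted p). Over all genes tested, 2.04% were called higher and 2.11% lower. The median log2 fold change of the list was 1.18, beside -0.08 over all genes tested. PDGFRB, the receptor of mural and mesenchymal cells, rose from 7.92 and 5.09 FPKM to 32.6 and 25.9 FPKM (log2 fold change 2.03, adjusted p 0.0164). POSTN rose by 1.97 on the log2 scale (adjusted p 0.00900). It passed the filter only through the HAND1 libraries, as both Control libraries were below 1 FPKM. LUM, a collagen-binding proteoglycan, rose from 14.8 and 17.7 FPKM to 50.1 and 39.7 FPKM (log2 fold change 1.41, adjusted p 0.0214), a call lost without Control 1 (0.0739). THY1 was at 378 and 383 FPKM against 553 and 628 FPKM and COL3A1 at 160 and 97.9 FPKM against 325 and 241 FPKM, neither called (adjusted p 0.117 and 0.1004). Against this direction, COL1A1 was at 89.9 and 79.7 FPKM in Control and 70.0 and 74.0 FPKM with HAND1, and COL1A2 at 154 and 141 FPKM against 68.6 and 101 FPKM, neither called. DCN and FAP, which define mature fibroblasts, were under the filter, with FAP listed at 0 in 3 of 4 libraries. The part of these stromal values in WT1, ALDH1A3 and LRRN4 was not tested.

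Epithelial markers gave 0 limma calls among 7 tested (unadjusted p under 0.05 in 0 higher and 1 lower) and summed to 95.9 and 96.5 FPKM in Control and 58.6 and 72.5 FPKM with HAND1. CLDN7 was at 76.0 and 62.1 FPKM against 45.2 and 36.4 FPKM (adjusted p 0.102) and EPCAM at 5.35 to 16.8 FPKM. Cardiac muscle markers gave 0 limma calls among 5 tested (unadjusted p under 0.05 in 1 higher and 1 lower), at 49.2 and 32.4 FPKM in sum in Control and 28.1 and 30.4 FPKM with HAND1. NKX2-5 was at 40.9 and 22.9 FPKM against 19.6 and 14.7 FPKM (adjusted p 0.250), and MYL7 at 2.28 to 3.78 FPKM.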

How the data were processed

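RNA of CD31+ cells was extracted with TRIzol and made into libraries with an Illumina TruSeq RNA kit. The authors deposited 1 table of gene values for the 4 libraries, which names no unit and was taken as FPKM. The submitters' processing notes name BWA, Bowtie and RSEM, without roles, and hg19, whereas 55583 of the 55605 gene IDs matched to GENCODE 29 had its GRCh38 coordinates, which are used here. Of 58365 rows, 45 Y copies of pseudoautosomal genes and 91 further rows sharing an ID were left out. Depth was estimated from the FPKM step of 1 fragment in genes with 1 exon and 1 transcript longer than 1200 nt. It covers counting only.

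Genes at 1 FPKM or more in at least 2 libraries were tested as log2(FPKM + 1) with limma 3.58.1 (trend, two-sided, no covariates) in R 4.3.3 and adjusted by Benjamini-Hochberg. The script was tested on simulated data. An exact permutation test of 2 against 2 cannot go below p = 0.333, so none was run. Fragment numbers use the longest coding transcript. The genes described and all lists were chosen with earlier results of these data known. From each list the text names up to 4 called genes with the largest change and the 2 of highest mean FPKM, and in addition the 10 genes, HAND1, WT1-AS and the 5 genes nearest to WT1. PECAM1, TBX18, RARA, RARG, PTPRC, MPO, DCN, FAP, COL1A1, COL1A2, HOXD11, further overlapping genes and CYP26A1 beside its list were named after their values were seen. Some list genes that this rule would name are not reported here. Alternatives covered the pseudocount, the filter, quantile and median-ratio scaling, limma without trend, a replicate block, a fold threshold and each library left out. Promoter windows came from RefSeq (GRCh38.p14), and for the genes described the first entry listed was used.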

Additional observations from a re-analysis of the deposited data

How the results depend on the processing

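With 2 libraries a group, the counts of calls fell most when a Control library was left out. Such a fit has 1 library in a group and takes its spread from the other group alone. The reason for the fall was not tested. Leaving out 1 library gave 134 to 266 genes higher (main 299) and 137 to 309 lower (main 309), with 141 and 144 without Control 1 and 134 and 137 without Control 2. Of the 10 genes described, 2 to 3 were then called higher and 0 to 1 lower, with 0 lower without Control 1 or Control 2. The list genes gave 5 to 9 higher (main 7) and 10 to 13 lower (main 12). Testing all 29860 genes above 0 called 0 genes by limma in either direction (unadjusted p under 0.05 in 1458 higher and 2352 lower genes), thus 0 and 0 of the 10 genes (3 and 3 unadjusted) and 0 and 0 list genes (23 and 24 unadjusted), with the prior degrees of freedom falling from 3.61 to 1.32. A filter of 1 FPKM in every library left 1 of the 10 genes called higher, since WT1, ALDH1A3 and ALDH1A2 were then not tested, and 7 list genes lower. Median-ratio scaling, which moved the median log2 fold change of all genes to 0.00, called 11 list genes higher, and the cause was not tested. The labels number the libraries 1 and 2 in both groups, and deviations of same-numbered libraries correlated at 0.383, but with 2 pairs the number is not shown to mark a shared culture. A replicate block called 597 genes higher and 712 lower and 20 list genes higher, with WT1-AS then at an adjusted p of 0.0429. Of the 10 genes it called 3 higher and 1 lower. The direction was checked for the 10 genes and the called list genes named, and the called ones kept it under every alternative run. Values of 1 FPKM or less rest on few fragments, which limits TCF21, UPK3B and MSLN most.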
